A study of Drosophila melanogaster with 3 samples.

Results

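The regions described here are the Hr4 peaks whose summit lay over 250 and up to 1000 bp from the nearest annotated transcription start site and in no annotated exon, that is, in the sequence just beyond a core promoter. Hr4 binding was mapped in Drosophila melanogaster by chromatin immunoprecipitation and sequencing (ChIP-seq) with an antibody against green fluorescent protein (GFP). All libraries came from 1 group: the transgenic line Hr4-GFP, which stably expresses Hr4 with GFP at its C-terminus, collected as whole white prepupae with males and females pooled and a labelled age of 48 days. The group had 3 biological replicates and was compared with no other genotype, stage or treatment, and no control library was analysed here. Whole animals mix all tissues of the prepupa, so a peak cannot be assigned to a cell type, and a site bound in few cells cannot be told apart from a site bound weakly in many. Which promoter drives the tagged Hr4 is not stated in the labels.

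The optimal list, which the submitters derived from the replicates by irreproducible discovery rate (IDR) analysis, held 8693 peaks in build dm6, and 8687 of them lay on the 6 main chromosome arms. The rule kept 1663 of these 8687 summits. Of the 1663, 1077 lay upstream of the nearest start site and 586 downstream of it, where downstream means inside the transcribed side. For comparison, 1733 summits lay within 250 bp of a start site (promoter summits) and 4958 lay more than 1000 bp away and in no exon (distal non-exonic summits). Within the optimal list, position chose these regions and the signal value did not. The list itself holds the peaks that were strong and reproducible in these same replicates, so recovery and rank in the replicates were largely set by it and are only compared between classes of the list. Distance to a start site is fixed by the rule.

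Hr4 is an orphan nuclear receptor that is induced in the genetic cascade set off by the steroid hormone 20-hydroxyecdysone, the signal for moulting and metamorphosis. In Drosophila it is known to repress early ecdysone-induced genes, to help induce the receptor Ftz-f1 in prepupae, and to restrain ecdysone production in the prothoracic gland. Nuclear receptors bind short half-sites in DNA through a pair of zinc fingers, and in insects regulatory sequence commonly sits just upstream of a start site and in the first introns. Many fly genes have several start sites, so that sequence upstream of one start site is often intron of a longer transcript of the same gene.

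The sequences at the summits of the strongest regions are shown because they illustrate the composition that the measurements below describe: short runs of A and T in AT-rich sequence. Each runs from 50 bases left to 50 bases right of the summit, plus strand of dm6, read from the RefSeq Release 6 assembly, with every run of 8 or more bases made only of A and T in capitals. The first 5 lie upstream of the named gene's start site and the last 4 downstream of it. They are from the highest signal values on each side with no exon in the window, outside one chromosome arm that is not shown.
larp (chr3R:28326549-28326649): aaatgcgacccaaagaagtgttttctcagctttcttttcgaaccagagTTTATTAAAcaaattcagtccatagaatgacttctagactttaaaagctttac
Lk6 (chr3R:11760999-11761099): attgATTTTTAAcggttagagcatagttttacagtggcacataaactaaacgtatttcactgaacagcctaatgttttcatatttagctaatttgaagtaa
Reph (chr2L:3804707-3804807): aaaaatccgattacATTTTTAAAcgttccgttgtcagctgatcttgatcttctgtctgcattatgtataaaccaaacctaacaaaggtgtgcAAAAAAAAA
CG4496 (chr2L:7188567-7188667): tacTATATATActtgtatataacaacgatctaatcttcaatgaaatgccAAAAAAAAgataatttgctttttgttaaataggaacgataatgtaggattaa
ph-p (chrX:2137278-2137378): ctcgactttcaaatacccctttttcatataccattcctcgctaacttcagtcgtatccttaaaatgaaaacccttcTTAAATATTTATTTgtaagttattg
CG9663 (chr2L:3302141-3302241): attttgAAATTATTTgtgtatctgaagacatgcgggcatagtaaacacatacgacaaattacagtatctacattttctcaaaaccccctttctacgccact
CG42327 (chr3R:11656747-11656847): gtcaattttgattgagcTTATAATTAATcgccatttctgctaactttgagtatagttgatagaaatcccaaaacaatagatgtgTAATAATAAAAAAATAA
Tmhs (chr3L:1886196-1886296): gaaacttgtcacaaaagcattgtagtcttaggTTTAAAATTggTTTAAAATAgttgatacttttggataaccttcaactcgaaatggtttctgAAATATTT
Mhcl (chr3R:16097774-16097874): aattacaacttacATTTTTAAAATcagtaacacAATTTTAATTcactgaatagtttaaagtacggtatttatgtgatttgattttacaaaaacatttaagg

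All 9 windows hold at least 1 such run. The longest is 17 bases, in the window of CG42327, and ph-p has 1 of 14 bases. GC content of these windows was between 21.8% (Mhcl) and 35.6% (CG9663).

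Within the zone, summits were densest close to the start site on the upstream side and showed no such peak near it on the downstream side. Upstream, the density per Mb of eligible sequence was 266.6 summits at 250 to 400 bp (exact 95% Poisson interval 242 to 292), 174.7 at 400 to 550 bp, 128.4 at 550 to 700 bp, 102.4 at 700 to 850 bp and 96.8 at 850 to 1000 bp (78.9 to 118). Downstream, it was 100.2 at 250 to 400 bp (79.1 to 125), 149.3 at 550 to 700 bp (126 to 176) and 122.6 at 850 to 1000 bp (102 to 146). A summit at the upper limit of a range is counted in it, and one at the lower limit is not. Eligible sequence is all sequence that satisfies the position rule, and the intervals cover counting error only.

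Over the whole zone the density was 148.0 summits per Mb (141 to 155), against 60.4 for distal non-exonic summits (58.7 to 62.1). Promoter summits had 172.8 (165 to 181), but that value counts exonic summits and exonic bases, which the zone and distal values leave out. It is therefore not on the same basis. With exons kept, the zone had 128.7 per Mb upstream and 58.2 downstream. Upstream regions had 164.4 per Mb (155 to 174) and downstream regions 125.1 (115.2 to 136). The upstream share was 64.8% of the regions (95% Wilson interval 62.4 to 67.0), where upstream sequence made up 58.3% of the eligible bases. The median distance was 447 bp upstream and 659 bp downstream. Eligible sequence also lay closer to the start site upstream: 2.65 of 6.55 Mb were at 250 to 500 bp, against 1.35 of 4.68 Mb downstream. On both sides the zone off exons was more densely bound than distal non-exonic sequence, and the upstream interval lay above the downstream one. With exons kept, the downstream 58.2 was not above the distal 60.4, which leaves exons out.

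**Figure D1:**
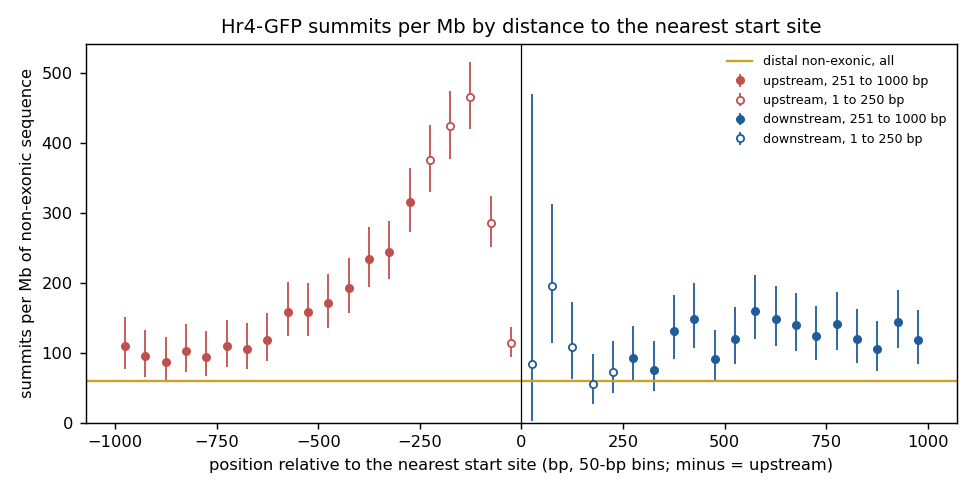
Summits per Mb of non-exonic sequence (y axis) in 50-bp bins of distance to the nearest start site (x axis, minus for upstream), with exact 95% Poisson intervals. Filled points are the regions described, open points lie within 250 bp, and the line is the density of distal non-exonic summits, 60.4 per Mb. Upstream density falls with distance from 466.2 per Mb at 100 to 150 bp, and downstream density shows no such fall within the zone. The open downstream points rest on few summits and little non-exonic sequence. They are 195.1 per Mb at 50 to 100 bp (17 summits), 108.1 at 100 to 150 bp (17), 54.9 at 150 to 200 bp (11) and 72.9 at 200 to 250 bp (17).

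The limit of 250 bp fell on a slope upstream and not downstream. Just outside it, 244 upstream summits lay at 200 to 250 bp with a median signal value of 223.8, and just inside it 189 lay at 250 to 300 bp with 206.1. Downstream, 17 summits lay at 200 to 250 bp with a median of 167.3, and 23 at 250 to 300 bp with 147.1. At the far limit the counts were nearly level: 37 summits upstream at 950 to 1000 bp and 39 in the 50 bp beyond 1000 bp, with 40 and 43 downstream. No peak interval of the 1663 reached its nearest start site. With a median peak width of 424 bp and summits over 250 bp away, the rule largely sets this.

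The same rule applied to each replicate's own list of 30000 entries gave an upstream share of 64.4% in replicate 1, 60.7% in replicate 2 and 61.6% in replicate 3 (62.2% ± 1.91, SD, n = 3). Among each replicate's 8693 highest entries the shares were 67.1%, 64.1% and 64.6% (65.3% ± 1.60, SD, n = 3). The median upstream distance among these entries was 453.5, 431 and 442 bp, and the median downstream distance 674.5, 664 and 655.5 bp. In all 3 replicates most summits in the zone were upstream, and upstream summits were closer to the start site. Position alone gives part of both, since 58.3% of the eligible bases were upstream and eligible sequence lay closer to the start site there. Over all entries, the shares of replicates 2 and 3 were near that 58.3%. X held 1223, 1590 and 1712 of these entries in replicates 1, 2 and 3. With autosomes alone the shares were 67.0%, 64.4% and 64.6%.

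Downstream regions lay mostly in introns of the gene itself, and upstream regions were split between introns and sequence between genes. The rule largely sets this split. Of the eligible downstream sequence, 4.02 Mb lay inside genes and 0.664 Mb in no gene, and upstream the amounts were 2.68 and 3.88 Mb. Of the downstream regions, 495 (84.5%) lay in an intron of the gene whose start site was nearest, 37 (6.31%) in an intron of another gene and 54 (9.22%) in no gene. Of the upstream regions, 435 (40.4%) lay in an intron of that same gene, upstream of one of its internal start sites, 143 (13.3%) lay in an intron of another gene and 499 (46.3%) in no gene. Intronic upstream regions had the higher signal: the median was 206.1 in introns of the same gene, 195.9 in introns of another gene and 169.6 in no gene.

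Density upstream was higher inside genes than between them. It was 216.0 summits per Mb inside genes (199 to 234) and 128.7 in no gene (118 to 141). At 250 to 400 bp the values were 347.2 (303 to 396) and 216.7 (189 to 247), and at 850 to 1000 bp they were 111.9 (83.0 to 147) and 85.5 (63.7 to 112). The fall with distance was therefore present in both kinds of sequence. Downstream, density was 132.4 per Mb inside genes (121 to 144) and 81.3 in no gene (61.1 to 106).

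**Figure D2:**
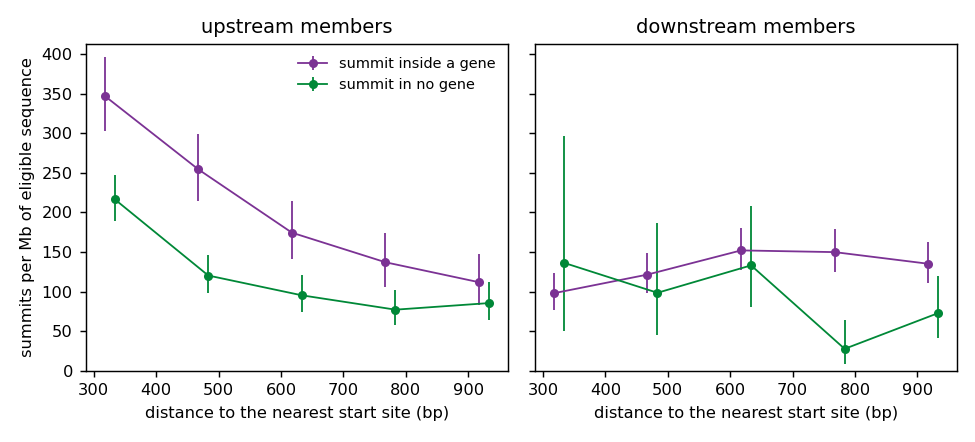
Summits per Mb of eligible sequence (y axis) in 150-bp bins of distance to the nearest start site (x axis, bp), for upstream regions (left) and downstream regions (right), split by whether the summit lies inside a gene or in no gene. Bars are exact 95% Poisson intervals. Upstream, both curves fall with distance and the one inside genes is higher in each bin, from 347.2 and 216.7 per Mb to 111.9 and 85.5, with overlapping intervals in the last bin.

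Most of the start sites were those of protein-coding genes. The nearest start site belonged to a protein-coding gene for 1426 regions (85.7%), to an ncRNA gene for 211 and to a tRNA gene for 17. The 1663 regions had 1494 distinct nearest start sites in 1339 genes, so some regions share a start site and are not independent. Within 2000 bp on the other side of the summit, 217 upstream regions (20.1%) and 39 downstream regions (6.66%) were also upstream of a start site of another gene. The same shares over all start sites or eligible sequence were not measured. These counts therefore describe the surroundings and are not a result about the regions.

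The share of regions with a promoter summit at the same start site was near the background upstream and above it downstream. A promoter summit was present at the same start site for 206 regions (12.4%, Wilson interval 10.9 to 14.1), against 10.1% of all 23581 annotated start sites with a summit within 250 bp. It was present for 112 upstream regions (10.4%, interval 8.71 to 12.4) and 94 downstream regions (16.0%, interval 13.3 to 19.2). Median signal was 193.6 with such a summit and 185.6 without it upstream, and 201.5 and 188.3 downstream. The upstream share is near the background and is not a result about these regions.

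Signal values of the regions lay between those of promoter and distal summits. The authors' signal value, compared here only within the optimal list, had a median of 187.9, against 210.1 for promoter summits and 165.5 for distal non-exonic summits. It was 186.0 upstream (order-statistic 95% interval 177 to 198) and 189.9 downstream (179 to 203), and these intervals overlap. Values ran between 88.0 and 2647. Upstream, the median was 207.1 at 250 to 400 bp and between 173.7 and 180.9 in the 4 bins beyond. Downstream it was 170.3 at 250 to 400 bp and between 186.2 and 200.8 beyond.

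The very strongest of the regions were mostly upstream, as were 64.8% of all regions. Among the strongest 10% of the optimal list were 214 regions (12.9%), 151 upstream (14.0%) and 63 downstream (10.8%), where the background is 10% of all optimal summits. The regions made up 1663 of the 8687 optimal summits, 1077 upstream and 586 downstream. Among the 100 strongest peaks of the list were 22 regions, a total near that share, with 19 upstream and 3 downstream. Those 3 downstream peaks were the ones of Adf1, CG9663 and CG42327.

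Between the replicates, the position in each list was compared as a rank percentile, with 100 for the highest of 30000 entries. Medians are over the summits found in that replicate only. In replicate 1 these were 91.0% of the regions, 82.7% of promoter summits and 95.6% of distal non-exonic summits. The regions had median percentiles of 87.3, 86.2 and 86.3 in replicates 1, 2 and 3, against 90.4, 87.3 and 87.4 for promoter summits and 85.2, 83.8 and 83.6 for distal non-exonic summits. They ranked below promoter summits in 3 of 3 replicates, by a mean of -1.77 ± 1.13 percentile points (SD, n = 3; exact two-sided sign-flip permutation test, p = 0.25, adjusted p = 0.375). They ranked above distal summits in 3 of 3 replicates, by 2.42 ± 0.289 points (SD, n = 3; exact permutation test, p = 0.25, adjusted p = 0.375). With 3 replicates this test cannot go below 0.25, so neither difference can pass 0.05, and adjustment was over 6 tests by Benjamini-Hochberg. On X the order against promoter summits was turned in replicates 2 and 3: the regions had medians of 87.9, 86.4 and 87.7 in replicates 1, 2 and 3, and promoter summits 87.9, 85.6 and 86.5. Among the stronger 50% of the list the mean differences were -0.941 points from promoter summits and 1.22 from distal ones, and without replicate 1 the difference from promoter summits was -1.11. The part that summits not found play in these differences was not tested.

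The difference in rank between upstream and downstream regions was smaller than its spread between replicates. Upstream regions had median percentiles of 87.6, 86.3 and 86.3 and downstream regions 86.7, 86.0 and 86.4 in replicates 1, 2 and 3. The difference was 0.397 ± 0.516 points (SD, n = 3; exact permutation test, p = 0.5, adjusted p = 0.6), and it was above 0 in replicates 1 and 2 and below 0 in replicate 3. On autosomes alone the medians were 87.5, 86.0 and 85.9 upstream and 86.5, 86.0 and 86.1 downstream. The difference depended on which regions entered. It was 1.21 ± 0.138 points among the stronger 50% of the optimal list, 0.991 ± 0.424 with the zone ended at 750 bp and 0.643 ± 0.385 with exonic summits kept, above 0 in 3 of 3 replicates in each and larger than its spread (SD, n = 3; exact permutation test, p = 0.25 in each, the smallest possible). It was 0.119 points without replicate 1 and 0.629 without replicate 3.

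**Figure D3:**
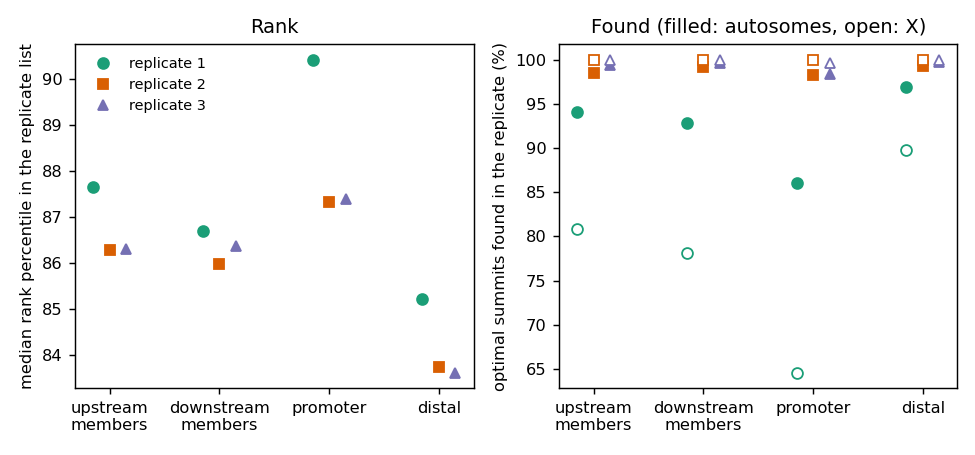
Left, median rank percentile (y axis) of upstream regions, downstream regions, promoter summits and distal non-exonic summits in each replicate's list, over the summits found in it. Right, percent of optimal summits with a replicate summit within 250 bp, on autosomes (filled) and X (open). Regions on both sides lie between promoter and distal summits in rank, between 86.0 and 87.6, and replicate 1 recovers fewer summits, most of all on X.

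Nearly all of the regions were found again in replicates 2 and 3, in a list where every one of the 8687 summits was found in at least 1 replicate. A replicate summit lay within 250 bp for 1513 regions (91.0%) in replicate 1, 1646 (99.0%) in replicate 2 and 1656 (99.6%) in replicate 3. All 3 replicates held 1492 regions (89.7%, Wilson interval 88.2 to 91.1), against 90.5% of all optimal summits, a share close to that of the list as a whole. It was 80.1% for promoter summits and 94.9% for distal non-exonic summits. Another 168 regions were found in 2 replicates and 3 in 1. Those 3, near CG5674, CR42490 and CG30046 and named after their values were seen, were all found in replicate 1.

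Replicate 1 stood apart. It lacked 150 regions, 64 of them on X, where replicates 2 and 3 lacked none. On X it held 79.9% of 318 regions and on autosomes 93.6% of 1345. Its list had 3262 entries on X, against 5753 and 6069 in replicates 2 and 3. Without replicate 1, 98.7% of the regions were found in both other replicates. The part that the lower share of X entries in replicate 1 plays in these counts was not tested beyond the autosomal values given here.

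The share of regions found exceeded that of promoter summits by 8.29 points in replicate 1, 0.420 in replicate 2 and 1.02 in replicate 3 (mean 3.24 ± 4.38, SD, n = 3; exact permutation test, p = 0.25, adjusted p = 0.375). Most of that mean rests on replicate 1, and without it the mean is 0.721 points. Upstream regions exceeded downstream ones by 0.324 ± 1.14 points (SD, n = 3; exact permutation test, p = 1, adjusted p = 1). The difference was 1.62 points in replicate 1, -0.524 in replicate 2 and -0.123 in replicate 3, and without replicate 1 its mean is -0.324.

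Replicate summits mostly stayed in the zone. The median shift from the optimal summit was 24, 15 and 19 bp in replicates 1, 2 and 3. The replicate summit was still in the zone, off exons and on the same side for 92.2%, 94.5% and 93.7% of the regions found. Between 58 and 60 per replicate fell within 250 bp of a start site instead. Across the 1492 regions found in all replicates, Spearman's rho of the percentiles was 0.80 between replicates 1 and 2, 0.81 between 1 and 3 and 0.86 between 2 and 3, given as a description because the regions share libraries.

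The median range of a region's percentile over the replicates was 5.27 points, and 3 regions had the widest range. The region upstream of Sox102F, a Sox-family transcription factor gene on chromosome 4, had percentiles of 93.4 and 89.5 in replicates 1 and 2 and 0.470 in replicate 3. A region downstream of a start site shared by CG45092 and chk had 83.6, 82.3 and 5.12. The region upstream of l(3)psg2 had 8.65 in replicate 1 and 83.3 and 72.1 in replicates 2 and 3. In each of the 3, 1 replicate alone was low.

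GC content dropped sharply at the summit on both sides. Within 50 bp of the optimal summit it averaged 31.9% (SD 7.44 over 1663 regions), against 43.5% and 44.0% in windows of the same length centred 250 bp to the left and right. It was 31.8% upstream and 31.9% downstream. Around the replicates' own summits the difference from the flanks was -11.80, -11.94 and -11.83 percentage points in replicates 1, 2 and 3 (mean -11.85 ± 0.0718, SD, n = 3; exact permutation test, p = 0.25, the smallest possible, adjusted p = 0.375). The drop was seen in all 3 replicates and varied little between them.

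This composition was common to the whole list. The mean at the summit was 32.7% for promoter summits and 31.0% for distal non-exonic summits. The flanks were at 42.2% and 42.5% for promoter summits and at 45.6% and 45.9% for distal ones. A GC content of 50% or more was found in 38 regions (2.29%), against 2.59% of all optimal summits. Runs of at least 8 A or T bases occurred in 81.8% of the regions at the summit and in 47.1% and 45.9% of the left and right flanks, and in 82.4% of the other optimal summits. The part that base composition plays in the position of the summits was not tested.

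**Figure D4:**
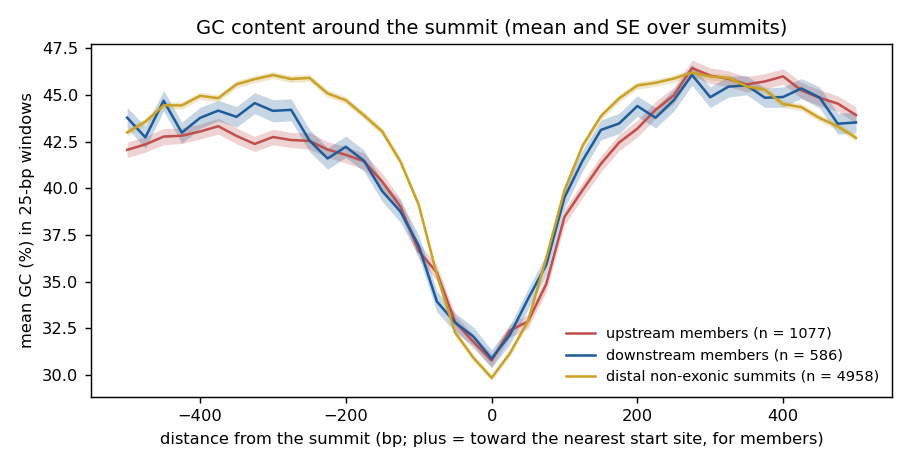
Mean GC content in 25-bp windows (y axis) against distance from the summit (x axis, bp, plus toward the nearest start site) for upstream regions, downstream regions and distal non-exonic summits, with the standard error over summits as a band. The 3 curves reach 30.8%, 30.9% and 29.8% at the summit. At 250 bp on the side of the start site they are at 45.0%, 44.7% and 45.9%, and on the far side at 42.5%, 42.6% and 45.9%.

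Receptor half-sites were rare at the summits. The half-site AGGTCA, searched like all motifs as an exact match on both strands within 50 bp of the summit, occurred in 36 regions (2.16%), against 1.71% of the other 7024 optimal summits. It occurred in 2.22% and 2.71% of the windows to the left and right. AAGGTCA, which contains it, occurred in 13 regions (0.782%) and in 0.655% of the other summits. A direct repeat and an inverted repeat of the half-site with 1 base between, and AAGGTCA preceded by TC, occurred in none of the 1663 regions. These letters describe the windows and do not locate a contact of Hr4.

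The next 3 motifs differed more between summit and flank than between the regions and the remaining summits. GAGAG, the core site of GAGA factor, occurred in 8.18% of the regions at the summit, in 20.6% and 20.0% of the left and right flanks, and in 8.43% of the other summits. TATAAA, the TATA box letters, occurred in 24.1% at the summit, in 11.9% and 9.98% of the flanks, and in 24.4% of the other summits. A repeat of CA 4 times occurred in 0.902% at the summit, in 4.15% and 4.87% of the flanks, and in 0.897% of the other summits. CGATA, the core site of the boundary protein BEAF-32, occurred in 10.8% of the regions and in 11.0% of the other summits. In the left and right flanks it occurred in 10.5% and 11.1%, so the summits did not stand out. It occurred in 11.9% of upstream regions (10.1 to 14.0) and 8.70% of downstream ones (6.68 to 11.3), with overlapping intervals. Promoter summits had 16.0% and distal ones 9.26%. The element of the replication-related factor DREF, which contains CGATA, occurred in 0.241% of the regions, in 0.301% and 0.421% of the left and right flanks, and in 0.769% of the other summits, with 2.14% of promoter summits. For the DREF element the regions thus differed more from the other summits as a whole than from their flanks. Their share rests on 4 regions (interval 0.0936% to 0.617%) and was close to the 0.323% of distal non-exonic summits.

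The strongest upstream region lay 335 bp from an internal start site of larp, which encodes an RNA-binding protein of the La-related family, at chr3R:28326599 (signal value 2647, rank 8 in the optimal list, percentiles 99.97, 99.97 and 99.98). The next lay at Lk6, a kinase of the translation factor eIF4E (2488, 970 bp), at Reph (2271, 925 bp) and at CG4496 (2082, 549 bp). HmgZ, which encodes a chromatin protein with an HMG box, followed at 1980.1. A region 473 bp upstream of ph-p, a subunit of Polycomb repressive complex 1, had 1854. The region of papi, a Tudor-domain protein of the piRNA pathway, had 1836, and that of Lpin, the phosphatidate phosphatase lipin, 1817. Rtnl1, a reticulon of the endoplasmic reticulum, had 1814. Sox14, an ecdysone-induced transcription factor of neuronal pruning, had 1765 at the near limit of the zone. Of these 10 regions, 9 lay in an intron of the gene itself and that of Sox14 in no gene.

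Downstream, the strongest region lay 808 bp into Adf1, a transcription factor gene, with a signal value of 1757 (rank 43). CG9663 had 1755 at 939 bp, CG42327 1455 at 648 bp and CG31635 1274 at 945 bp, and each also had a promoter summit at the same start site. Tmhs, a tetraspan membrane protein gene, had 1245 at 589 bp, and Mhcl, a myosin heavy chain-like gene, had 1209 at 937 bp. A start site shared by CG7694 and fray, a Ste20-like kinase gene, had 1153. The region of simj, a subunit of the NuRD chromatin complex, had 1133 and that of wde, a partner of a histone H3 lysine 9 methyltransferase, 1124. AMPdeam, the AMP deaminase gene, had 1118. All 20 of these regions were found in all 3 replicates, and the lowest percentile was that of AMPdeam in replicate 1, rank 302 of 30000 entries.

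A protein-coding gene counted as carrying a region when its own nearest start site lay over 250 and up to 1000 bp away. This was so for 1268 of 13945 genes, or 9.09%, and 340 of the 1268 (26.8%) also had a promoter summit, against 13.4% of all 13945 genes. Genes with more start sites offer more eligible sequence. The share was 4.90% of genes with 1 start site, 14.0% with 2, 27.4% with 3 and 49.3% with 4 or more, and genes with a region averaged 2.28 start sites against 1.41 for all genes. Each gene list below is set beside 9.09% and its own number of start sites, as a description without a test. What part start-site number plays in the list shares was not tested.

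Most of these genes, 1023, had 1 region, 180 had 2, 46 had 3, 15 had 4 and 4 had 5. The 4 were larp, CAP, for and Moe. At larp the signal values were 2647, 162.1, 452.7, 93.7 and 311.0 in genomic order, so 1 region far exceeded the rest. CAP, a cytoskeletal adaptor gene, had all 5 upstream of its start sites with values between 104.5 and 806.8. The cGMP-dependent kinase gene for had values between 101.3 and 642.8, and Moe, which encodes the membrane-actin linker moesin, between 118.2 and 469.1.

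Genes of the ecdysone list carried regions of moderate strength, mostly upstream. In the list of ecdysone response and timing, 9 of 31 genes had one (29%, interval 16.1 to 46.6), 8 of them with an upstream region and 2 with a downstream one, and the genes of this list averaged 2.61 start sites. Eip63F-1, an ecdysone-induced calcium-binding protein gene, had the strongest at 335.5, downstream by 471 bp (percentiles 93.6, 93.0 and 94.1). Eip63E, a cyclin-dependent kinase gene, had 278.3 upstream by 462 bp. Eip75B, an early-induced nuclear receptor that binds heme, had 252.8 upstream by 503 bp (chr3L:18064987-18065410) with percentiles of 90.8, 89.4 and 87.9. Eip63F-1 ranked 1873 in the optimal list, so the genes of this list stood well below the strongest regions. Sox14, the ecdysone-induced gene described above with 1765, is not in the list.

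Nuclear receptor genes had regions at 5 of 21 members (23.8%, interval 10.6 to 45.1), all upstream: Hnf4, Eip75B, Hr38, EcR and eg. Genes of this list averaged 2.38 start sites. Hnf4, a receptor of fatty acid catabolism, had 452.0 at 290 bp (peak at chr2L:8691253-8691672) with percentiles of 92.6, 96.8 and 96.4. Hr38, the fly NR4A receptor, had 220.1, and the ecdysone receptor gene EcR, named after its value was seen, 211.7. Among the 5, Hnf4 was highest in all 3 replicates.

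Shares in the 3 lists of metabolism and growth lay above the background, with 2.50, 2.00 and 1.87 start sites per gene. In glycolysis and lactate 4 of 14 genes had a region (28.6%, interval 11.7 to 54.6). Pgk, phosphoglycerate kinase, had 197.2 and PyK, pyruvate kinase, 189.7, upstream by 292 and 342 bp. Ald1, aldolase, had 112.4 downstream and was not found in replicate 1, and Hex-A, hexokinase, named after its value was seen, had 100.8 at a region also nearer to a long noncoding RNA. In fat and glycogen metabolism 6 of 26 had one (23.1%), 2 upstream and 4 downstream (interval 11.0 to 42.1). Lpin had 1817 upstream by 256 bp (chr2R:8146029-8146448), the lipase gene bmm 642.8 downstream by 659 bp, and the lipid regulator SREBP 618.6 downstream by 564 bp. Here the members ranged widely, and the strongest glycolytic region was weaker than these 3. In insulin, TOR and growth the share was 6 of 31 (19.4%, interval 9.19 to 36.3). The transcription factor foxo had 258.9 and the TOR inhibitor chrb had 188.2.

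In the Notch pathway 9 of 21 genes had a region (42.9%, interval 24.5 to 63.5), with an average of 1.29 start sites per gene, no more than the 1.41 of all genes. The transcriptional repressor E(spl)m3-HLH had 603.7 upstream by 370 bp, and its relative E(spl)m7-HLH had 387.5 upstream by 368 bp. The glycosyltransferase gene fng, which modifies Notch, had 595.0 at a region nearer to the start site of a long noncoding RNA. The percentiles of E(spl)m3-HLH were 98.0, 97.8 and 97.9, nearly the same in each replicate. Genes of the E(spl) complex lie side by side, so they are not independent, while the interval treats them as if they were. The 9 also include E(spl)mdelta-HLH, E(spl)m2-BFM and E(spl)mbeta-HLH, named after their values were seen.

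In the list of Hippo, EGF receptor, JNK and AP-1 the share was 11 of 32 (34.4%, interval 20.4 to 51.7), with 1.81 start sites per gene. The signalling inhibitor sty had 1149 upstream by 998 bp (chr3L:3418773-3419143), the cadherin gene ds 1125 upstream by 591 bp, and Diap1, the inhibitor of caspases, 704.9 downstream by 647 bp. Diap1 had 4 regions in all. In Wnt, Hedgehog and TGF-beta 6 of 29 had one (20.7%, interval 9.85 to 38.4), with 1.86 start sites per gene: the repressor brk had 454.3, the signal transducer Mad 432.7 and the ligand Wnt4 160.3, all upstream. Cell death and autophagy had 3 of 22 (13.6%), with 1.36 start sites per gene: the death inducer hid with 867.9 upstream by 354 bp (chr3L:18185766-18186170), Diap1, and the caspase gene Decay with 213.8. Its interval, 4.75% to 33.3%, includes the background.

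Chromatin proteins had 4 of 26 (15.4%), with 1.65 start sites per gene, led by ph-p at 1854. The interval, 6.15% to 33.5%, includes the background. Trl, which encodes GAGA factor, had 322.7 downstream and ph-d, the tandem copy of ph-p, 302.0 upstream. Su(z)2, the fourth and named after its value was seen, had 103.1 and was not found in replicate 1. The near-identical pair ph-p and ph-d can share reads, and the labels do not say how such reads were placed. Circadian clock genes had 6 of 12 (50%, interval 25.4% to 74.6%), with a mean of 2.58 start sites. The kinase gene sgg had 632.2 downstream, the clock gene tim 173.1 downstream and the transcription factor Pdp1 144.5 upstream, with percentiles of 48.6, 80.4 and 90.4 that differed widely between replicates.

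The 3 gene families matched by name had shares near or below the background. Ribosomal protein genes had 2 of 85 (2.35%, interval 0.648% to 8.18%), with 1.73 start sites per gene, while 28 of the 85 had a promoter summit, against 13.4% of all genes. The 2 were RpS19b with 965.3, not found in replicate 1, and RpS12 with 183.4. Both regions were nearer to a start site of another gene, CG5854 for RpS19b and Adk2 for RpS12. Odorant, gustatory and ionotropic receptors had 1 of 179 (0.559%) with 1.11 start sites per gene, Or88a with 104.2, and it was nearer to CG12402. Cuticle protein genes had 12 of 121 (9.92%), near the background share, with 1.09 start sites per gene and none of the 121 with a promoter summit. Cpr50Ca had 479.7 upstream, Cpr66D 274.1 downstream and Cpr49Ah 259.4 upstream, and Cpr50Ca had percentiles of 96.8, 96.5 and 96.2.

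**Figure D5:**
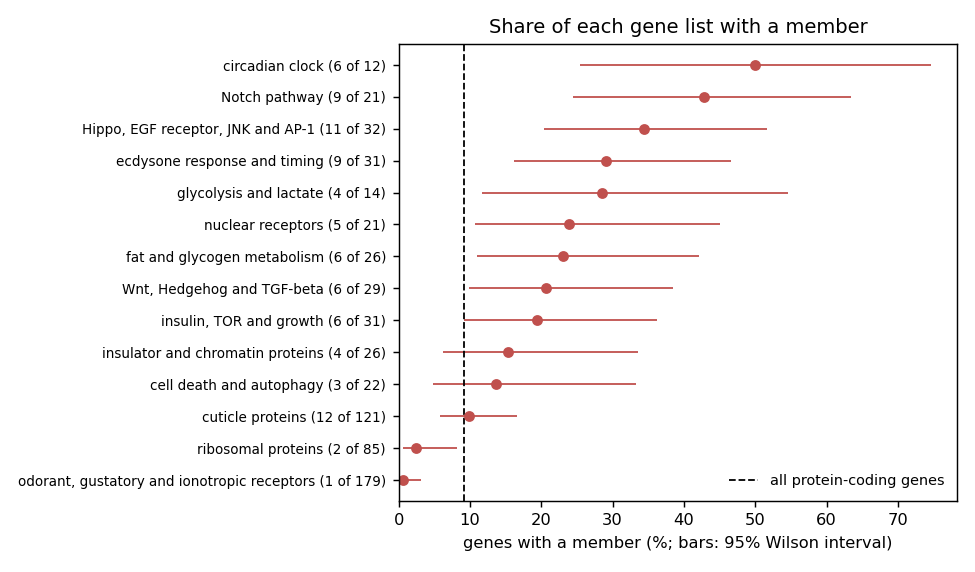
Percent of the genes of each list that had a region in the zone around their own start site (x axis), with 95% Wilson intervals over genes. The dashed line is the share of all protein-coding genes, 9.09%. Circadian clock and Notch genes have the highest shares, 50% and 42.9%, and ribosomal proteins and chemosensory receptors the lowest, 2.35% and 0.559%.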

How the data were processed

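Peak lists of 3 replicates of 1 group were analysed. Per the deposited text files, the authors made a relaxed list for each replicate from its alignments and a control, another from the pooled alignments, and an optimal list from the 4 relaxed lists. Per the labels, chromatin was sonicated to 200 to 800 bp. The sources used here name no caller, aligner or IDR threshold. The unit is the authors' deposited signal value, on the scale of its own list. Read depth is unknown. All p-values come from sign flips over these 3 replicates. Where the differences of all 3 share a sign, p is 0.25 whatever their spread.

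Summits were placed on dm6 with Ensembl release 115 start sites and exons, transposable elements left out (Python 3.11.15, numpy 2.4.6, pandas 2.3.3, scipy 1.17.1). A replicate summit within 250 bp counted as found. Differences between classes were tested by exact two-sided sign-flip permutation over replicates. 17 motifs and 14 gene lists were used. Genes were named by a fixed rule: the 10 strongest regions per side, the 3 strongest genes per list, the genes with most regions and the 3 regions with the widest range between replicates. The regions, lists and rule were chosen with earlier results of these data known. Steps were tested on simulated positions. The closing section gives the effect of the alternatives. 1 gene and 1 sequence that these rules select are not reported here. Lists in dm3 were not used here.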

Additional observations from a re-analysis of the deposited data

How the results depend on the processing

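Of 155 alternative values, 55 of untested results stayed within the interval, the spread between replicates or 1.5 times the main count. Another 65, of results with a test over replicates, kept their direction and their side of 0.05, which 3 replicates cannot pass, so this says nothing of their stability. Of these 65, 9 moved by more than 1 SD: the rank difference upstream minus downstream was 1.21 for the stronger 50% and 0.991 to 750 bp, that from distal summits 1.22 and 2.79, and GC minus flanks -13.50 for the stronger 50%, -11.48 with protein-coding start sites, -11.76 to 750 bp, -11.53 with exons and -12.05 without X. Upstream share: 70.8% with the zone ended at 750 bp and 60.8% with exons kept. Upstream density per Mb: 179.7 with protein-coding start sites, 189.5 to 750 bp, 128.7 with exons, 87.6 for the stronger 50%, 148.0 for regions found in all 3 replicates and 145.3 with transposable elements annotated, a setting added after seeing the data. Downstream density: 58.2 with exons, 68.3 for the stronger 50%, 111.5 for regions found in all 3 replicates and 110.6 with transposable elements, so upstream density stayed above downstream in each. The stronger 50% gave 894 regions, 756 genes, median signals of 341.3 upstream and 298.4 downstream, and 7.27% sharing a start site with a promoter summit (9.97% to 750 bp). Median upstream signal was 198.6 for regions found in all 3 replicates. GC upstream was 31.1% (stronger 50%), 31.6% (25-bp windows) and 33.5% (100-bp). Downstream it was 31.5% and 33.8% in those windows, 32.3% with protein-coding start sites, 33.0% with exons, 31.7% for the stronger 50% and 31.6% for regions found in all 3 replicates. AGGTCA shares were 1.02% and 4.63% in 25-bp and 100-bp windows. Regions found in all replicates were 93.8% of the stronger 50%, 92.0% without X, 80.5% at 100 bp, and 89.96% to 98.7% when a replicate was left out. The difference in share found, upstream minus downstream, was between -0.324 and 0.748 when a replicate was left out, reversed without replicate 1. The stronger 50% holds fewer peaks by construction, so its counts of regions and genes are lower. The cause of the other changes was not tested. No paired analysis was possible because there is 1 group, so no replicate numbers are shared between groups. Differences between classes of summits were taken within each replicate. Replicates enter as lists of equal length, so depth limits cannot be given, and control libraries were not analysed here.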
